A study of Macaca fascicularis with 3 samples.

Results

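The miR-15/16 family, which includes miR-195, miR-424 and miR-497, was described in the kidney cortex of 3 cynomolgus monkeys (Macaca fascicularis). Its members were the listed mature miRNAs whose names have the stem miR-15a, miR-15b, miR-16, miR-195, miR-424 or miR-497 and stand for the 5p arm or for no stated arm. The 6 members found were miR-15a-5p, miR-15b-5p, miR-16-5p, miR-195-5p, miR-424-5p and miR-497-5p, out of 432 listed miRNAs. Each stem matched a single name, and each name ended in 5p. The authors' deposited table pairs all 6 with the human miRNA of the same name, and none shared its 3 counts with another name.

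All 3 animals were naïve, with a labelled age between 2 and 3 years, and formed a single group of 1 small RNA library each. Each library was prepared from 12 ng of small RNA enriched from the total RNA of 25 to 30 mg of frozen cortex. The labels name no treatment, genotype or batch, so counts can be compared between miRNAs and between animals but not between conditions. In bulk tissue, fewer cells of a type and less RNA per cell cannot be told apart.

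Members of this family share a seed, the stretch near the 5′ end of a miRNA that pairs with target mRNAs, and bind overlapping sets of targets. They are known as brakes on the cell cycle and on survival, acting on cyclins D1 and E1, on the checkpoint kinases WEE1 and CHEK1, and on the anti-apoptotic protein BCL2. In mammals the hairpins of miR-15a and miR-16-1 lie together in an intron of DLEU2, those of miR-15b and miR-16-2 in an intron of SMC4, those of miR-195 and miR-497 in a further shared transcript, and that of miR-424 on the X chromosome beside miR-503, miR-542 and the miR-450 hairpins. Because both miR-16 hairpins give the same 5p strand, miR-16-5p sums the output of the DLEU2 and SMC4 loci. Mature sequences and genomic positions were not used here.

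Listed miRNAs received between 3957188 (animal 3) and 4707892 (animal 2) counts in a library. The labelled tissue was checked against a renal list, of which all 4 stems were present, in 5 names, with none at 0 in any library. The renal list summed to between 53073 and 61982 CPM (counts per 1000000 listed counts), mostly through miR-204-5p. The erythroid list (miR-451, miR-144 and miR-486) had all 3 stems present, in 4 names with none at 0 in any library, and summed to between 4374 and 5765 CPM. The leucocyte list summed to between 1518 and 1727 CPM, the vascular list to between 71708 and 85190 CPM, the muscle list to between 363 and 562 CPM, the neuron list to between 107 and 131 CPM and the liver list to between 4.04 and 8.82 CPM.

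The family as a whole took 2.85% ± 0.336 (SD, n = 3) of the listed counts, or 370157 counts over the 3 libraries. Animal 1 had a share of 2.47%, with a Wilson 95% confidence interval of 2.46 to 2.49. Animal 2 had 3.12% (interval 3.10 to 3.13), and animal 3 had 2.96% (interval 2.94 to 2.97). Animal 1 was lowest and the intervals of the 3 animals did not overlap. These intervals cover counting error only, since reads without molecular identifiers are not independent molecules.

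**Figure D1:**
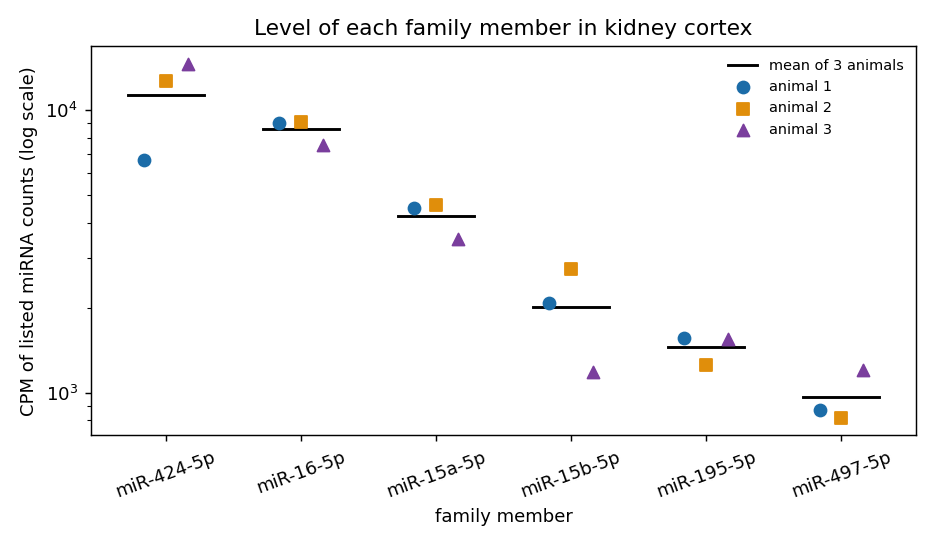
Level of each family member in CPM over the listed counts (vertical axis, log scale), with 1 point for each animal and a bar at the mean of the 3 animals. The means fall from 11305 CPM for miR-424-5p to 967 CPM for miR-497-5p, and animal 1 lies well below the other two for miR-424-5p while animal 3 lies below them for miR-15b-5p.

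miR-424-5p, the member from the X-linked cluster, had the highest mean level, 11305 CPM ± 4127 (SD, n = 3). Its counts were 28744 in animal 1, 59520 in animal 2 and 57761 in animal 3, which gave 6675, 12643 and 14597 CPM. Animal 1 was the low sample, and the rank of miR-424-5p among all listed miRNAs was 32 there, against 23 in animal 2 and 21 in animal 3.

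miR-16-5p, the strand shared by both miR-15/16 loci, came next, its mean being 8542 CPM ± 868 (SD, n = 3). Its counts of 38800, 42720 and 29837 in animals 1, 2 and 3 corresponded to 9011, 9074 and 7540 CPM. Animals 1 and 2 were nearly level and animal 3 was lower, and the rank stayed between 26 and 28. miR-16 is also known as an abundant miRNA of red blood cells. The erythroid list summed to 5025, 4374 and 5765 CPM in animals 1, 2 and 3 and was highest in animal 3, where miR-16-5p was lowest. Most of this sum was miR-451, at 4369, 3900 and 5386 CPM. miR-144, of the same list, was lowest in animal 3, at 633, 424 and 326 CPM. The part of blood cells in the level of miR-16-5p was not tested.

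miR-15a-5p, the DLEU2 partner of miR-16-1, had a mean of 4210 CPM ± 625 (SD, n = 3). Its counts were 19441, 21763 and 13815, or 4515, 4623 and 3491 CPM in animals 1, 2 and 3. As for miR-16-5p, animals 1 and 2 lay close together and animal 3 below them.

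miR-15b-5p, the partner of miR-16-2 in SMC4, was less abundant, with a mean of 2007 CPM ± 786 (SD, n = 3). Its counts were 8964, 12957 and 4694, or 2082, 2752 and 1186 CPM in animals 1, 2 and 3. Here the 3 animals were all apart, and the rank was 58 in animal 2 and 77 in animal 3.

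miR-195-5p and miR-497-5p, from the transcript that carries both hairpins, were the least abundant members. The counts of miR-195-5p were 6711, 5891 and 6146 in animals 1, 2 and 3, with a mean of 1454 CPM ± 176 (SD, n = 3). Animals 1 and 3, at 1559 and 1553 CPM, lay above animal 2, at 1251 CPM. miR-497-5p had 3757, 3850 and 4786 counts and a mean of 967 CPM ± 212. Its level was 873, 818 and 1209 CPM, so that animal 3 stood above the other two.

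The order of the members by mean level was thus miR-424-5p, miR-16-5p, miR-15a-5p, miR-15b-5p, miR-195-5p and miR-497-5p. Levels were compared as counts within each library, where scaling between libraries plays no part, and mature miRNAs are of nearly the same length. How evenly the library preparation captured different sequences was not measured. The order, and the shares and arm ratios below, are thus of counts and may differ from those of the RNAs present. Of the 5 neighbouring pairs in this order, 3 kept it in every animal. The log2 difference averaged 1.03 ± 0.07 (SD, n = 3) for miR-16-5p over miR-15a-5p, 1.14 ± 0.41 for miR-15a-5p over miR-15b-5p and 0.60 ± 0.24 for miR-195-5p over miR-497-5p. An exact sign-flip permutation test, taken two-sided over the animals, gave p = 0.25 for each of these, the smallest that 3 animals allow, and 0.417 after Benjamini-Hochberg adjustment over the 5 pairs, so none could pass a threshold of 0.05.

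The order of the neighbours miR-424-5p and miR-16-5p changed between animals. The log2 difference was -0.43 in animal 1, 0.48 in animal 2 and 0.95 in animal 3 (exact sign-flip permutation p 0.5, adjusted 0.5). miR-16-5p was therefore the top member in animal 1 and miR-424-5p in the other two. The neighbours miR-15b-5p and miR-195-5p changed order as well, with log2 differences of 0.42, 1.14 and -0.39 (exact sign-flip permutation p 0.5, adjusted 0.5). As the smallest possible p was 0.25, this test could not have shown a difference for either pair.

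**Figure D2:**
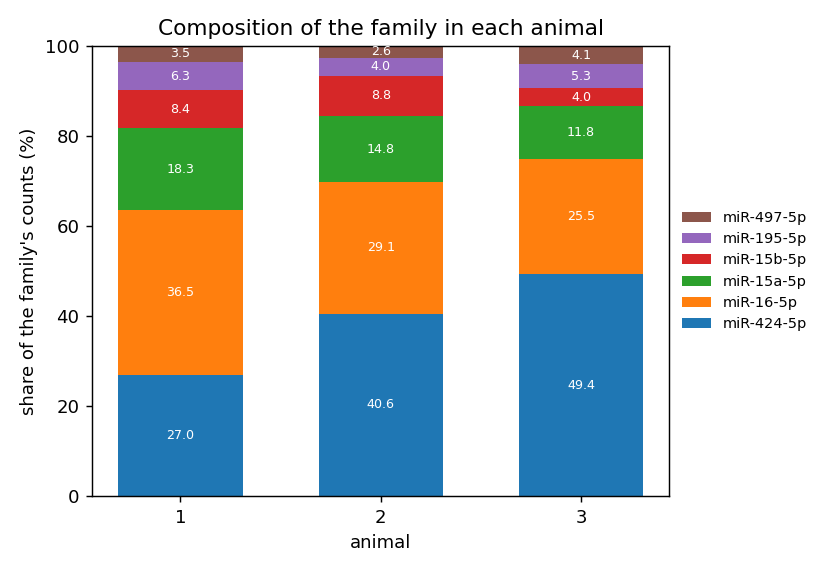
Share of the family's counts taken by each member (vertical axis, percent) in each of the 3 animals (horizontal axis). The segment of miR-424-5p covers 27.0% in animal 1 and 49.4% in animal 3, and that of miR-16-5p 36.5% and 25.5%.

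The make-up of the family differed between animals. In animal 1, miR-424-5p took 27.0% of the family's counts, with a Wilson 95% interval of 26.7 to 27.3. The share was 40.6% (interval 40.3 to 40.8) in animal 2 and 49.4% (interval 49.1 to 49.6) in animal 3. The members made at the DLEU2 and SMC4 loci, miR-15a-5p, miR-15b-5p and miR-16-5p, together took 63.2%, 52.8% and 41.3% in the same animals. Animal 1 thus drew most of its family counts from the miR-15/16 loci, and animal 3 had more from miR-424-5p alone than from these 3 members. miR-195-5p took 5.19% ± 1.15 (SD, n = 3) and miR-497-5p 3.41% ± 0.739.

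The levels were then compared between animals after TMM scaling, which corrects each library total for differences in composition with a single factor. A chi-square test of homogeneity was run on the 391 miRNAs whose counts averaged 10 or more, with Benjamini-Hochberg adjustment over all of them and a threshold of 0.05. It called all 6 members different between the libraries, against 80.6% of the miRNAs tested, so most miRNAs are called by it and the count says nothing particular of the family. The highest adjusted p among the members was 2.15e-42, for miR-16-5p. Without animal 3 the call of miR-15a-5p was lost (adjusted p 0.155), which left 5 members called. The test sets the spread between animals against counting error alone and compares these libraries, not conditions. At these depths, small differences pass it.

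By size, the span from the lowest to the highest TMM-scaled CPM was 2.35-fold for miR-424-5p, 2.07-fold for miR-15b-5p, 1.65-fold for miR-497-5p, 1.39-fold for miR-195-5p, 1.20-fold for miR-15a-5p and 1.11-fold for miR-16-5p. Spans above 2-fold were thus found for 2 of the 6 members, against 39.9% of the 391 miRNAs and 25.9% of the 135 that averaged 1000 counts or more, as all members did. Without animal 3 none of the members exceeded 2-fold. Without animal 1 the span of miR-424-5p was 1.29-fold, and without animal 2 that of miR-15b-5p was 1.55-fold, which left 1 member in each case. The median span of the members was 1.52-fold, beside 1.71-fold over all miRNAs tested and 1.51-fold over these 135. miR-16-5p had the narrowest span of the family, and 2.81% of the miRNAs tested had a narrower span than it. For miR-424-5p the corresponding figure was 72.4%.

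**Figure D3:**
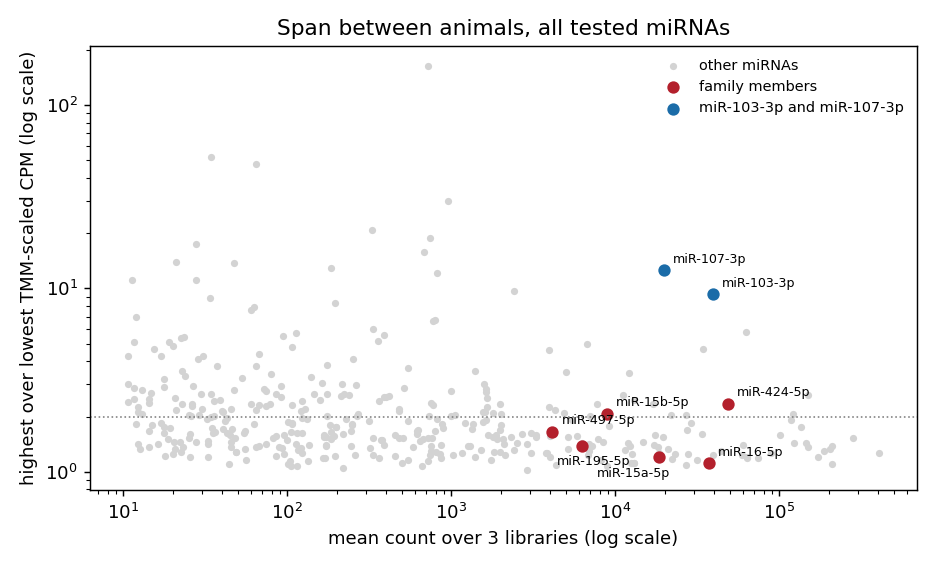
Highest over lowest TMM-scaled CPM among the 3 animals (vertical axis, log scale) against mean count (horizontal axis, log scale) for the 391 tested miRNAs, with the dotted line at 2-fold. Family members are in red at 1.11-fold to 2.35-fold, and miR-103-3p and miR-107-3p are in blue at 9.33-fold and 12.6-fold.

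The members did not share a common profile over the animals. On the log2(TMM-scaled CPM + 1) scale, miR-424-5p lay at -0.70, 0.17 and 0.53 from its own mean in animals 1, 2 and 3. miR-15b-5p lay at 0.12, 0.47 and -0.59, the opposite side of its mean in animals 1 and 3. miR-497-5p lay at -0.14, -0.29 and 0.43.

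The lowest animal was animal 3 for miR-15a-5p, miR-15b-5p and miR-16-5p, animal 2 for miR-195-5p and miR-497-5p, and animal 1 for miR-424-5p. These lowest animals were the same under TMM, library totals, DESeq2 size factors and the authors' normalized signal. The authors' signal is not a scaling independent of TMM, and it keeps the differences in library totals. Members encoded together had the same lowest animal, but so did miR-15a-5p and miR-15b-5p, which come from different loci. Outside the 6 members, miR-503-5p was lowest in animal 3, unlike its neighbour miR-424-5p. A part of shared encoding in this was not tested. Among all 391 miRNAs, 41.9% were lowest in animal 3, 23.0% in animal 2 and 35.0% in animal 1. Summed over the 6 members, the family was lowest in animal 1 with 24447 TMM-scaled CPM, against 29624 in animal 2 and 31450 in animal 3. Of the members, miR-424-5p alone was lowest in animal 1, so the low sum there does not describe the other members.

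Ratios within a library were used to describe how closely members followed each other. Of the 15 pairs of members, the steadiest ratio was that of miR-16-5p to miR-15a-5p. It was 2.00 in animal 1, 1.96 in animal 2 and 2.16 in animal 3, and the SD of its log2 was 0.07. Each library thus held about the same number of miR-16-5p counts for each count of miR-15a-5p, its DLEU2 partner. Among the 9045 pairs formed by the 135 miRNAs averaging 1000 counts or more, 2.10% had a smaller SD and the median SD was 0.46. The pair was picked as the steadiest of the 15, and that choice alone favours a low share. A part of shared encoding in the steadiness of these ratios was not tested.

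The next steadiest pair was miR-195-5p with miR-497-5p, which also share a transcript. The ratio was 1.79, 1.53 and 1.28 in animals 1, 2 and 3, with an SD of 0.24 for its log2, and 19.2% of the 9045 pairs had a smaller SD. The ratio of miR-16-5p to miR-15b-5p, its SMC4 partner, was less steady at 4.33, 3.30 and 6.36, an SD of 0.48. For this ratio, 51.9% of the 9045 pairs had a smaller SD. The least steady pair was miR-424-5p with miR-15b-5p, at 3.21, 4.59 and 12.3, and 85.7% of the 9045 pairs had a smaller SD. The median SD over the 15 member pairs was 0.51. The counting standard error of a single member ratio was at most 0.03 on the log2 scale if each read is an independent molecule. Without molecular identifiers, the sampling error may be larger. The 15 pairs share members and libraries and are not independent.

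Relatives of the family and neighbours of miR-424 were examined as a list. It held miR-503, whose 5p strand is usually placed in the extended family, miR-103 and miR-107, whose seed resembles that of the family shifted along the strand, and miR-542, miR-450a and miR-450b from the X-linked cluster. These stems gave 11 listed names, while miR-322, miR-646 and miR-6838 were not among the 432 names. The chi-square test with Benjamini-Hochberg adjustment called 9 of the 11 different between libraries, again beside 80.6% of all miRNAs tested. Spans exceeded 2-fold for 5 of the 11, with a median of 1.81-fold, and for 8 of the 11 the lowest animal was animal 3. Over all miRNAs tested these shares were 39.9% and 41.9%, so the count of wide spans is near the background. The 5 became 0 without animal 3, and 3 without animal 1, without animal 2 or under DESeq2 size factors.

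miR-503-5p, encoded next to miR-424, had 3225, 4439 and 2116 counts in animals 1, 2 and 3 and a mean of 742 CPM ± 204 (SD, n = 3). It was lowest in animal 3, where miR-424-5p was highest. The ratio of miR-424-5p to miR-503-5p was therefore 8.91, 13.4 and 27.3 in animals 1, 2 and 3, and its log2 had an SD of 0.82.

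The other strands of the cluster were not ordered alike over the animals. miR-450a-5p had 1008, 755 and 426 counts, miR-450b-5p had 324, 285 and 106 counts, and miR-542-3p had 850, 865 and 527 counts in animals 1, 2 and 3. These 3 strands were highest in animal 1 and lowest in animal 3 under TMM, library totals, DESeq2 size factors and the authors' signal, while miR-424-5p was lowest in animal 1 and highest in animal 3 under each of them. miR-450a-1-3p was highest and lowest in the same animals as these 3, with 33, 31 and 14 counts. miR-503-3p, with 84, 105 and 130 counts, instead shared the order of miR-424-5p, and miR-542-5p, with 110, 161 and 90 counts, was highest in animal 2. miR-424-5p had the most counts of the listed cluster strands in every library.

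**Figure D4:**
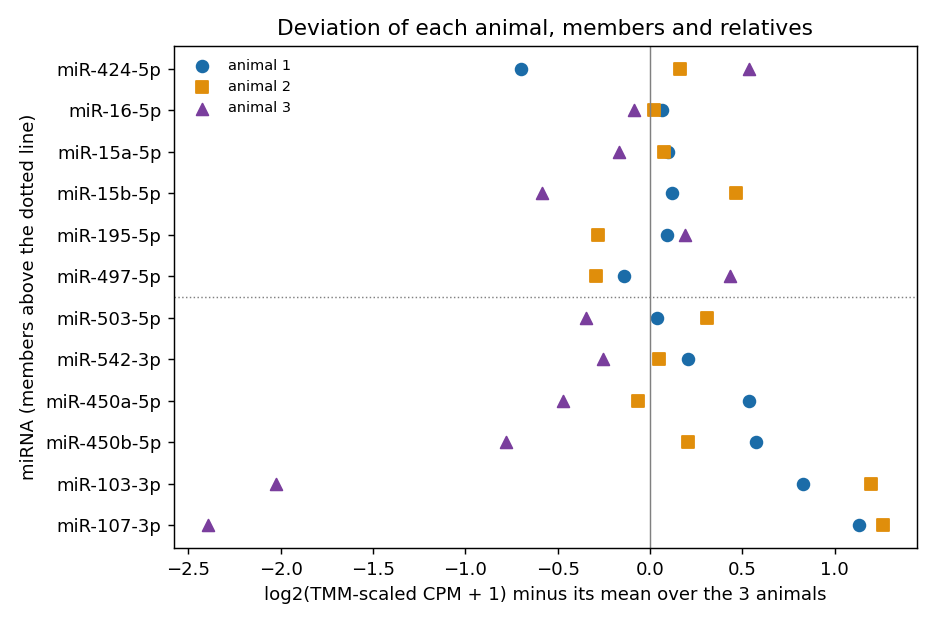
Deviation of each animal from the mean of the 3 animals on the log2(TMM-scaled CPM + 1) scale (horizontal axis), for the 6 members above the dotted line and 6 relatives or cluster partners below it. Animal 3 lies far to the left for miR-103-3p and miR-107-3p, and to the left for the 4 plotted partners of miR-424. It lies on the right for miR-424-5p, miR-195-5p and miR-497-5p.

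miR-103-3p and miR-107-3p lay in the range of the upper family members or above it in animals 1 and 2, and far lower in animal 3. miR-103-3p had 45567, 66947 and 5394 counts in animals 1, 2 and 3, a span of 9.33-fold. miR-107-3p had 25493, 31656 and 1886 counts, a span of 12.6-fold. The authors' deposited table pairs both with human miR-103a-3p, so the division of reads between these names is uncertain. Both spans were wider than that of any family member, and 94.9% and 96.2% of the miRNAs tested had narrower ones. Wide spans with animal 3 lowest also occurred outside the list, as for miR-502-3p (29.9-fold) and miR-324-5p (163-fold). miR-143-5p, at 47.6-fold, was instead lowest in animal 2. The 5p arms went the other way, miR-103-5p (20, 22 and 24 counts) and miR-107-5p (360, 514 and 490 counts) being highest in animal 3 after TMM scaling.

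The opposite, 3p arms of the family hairpins were present at low level, with 7 listed names. Counts of the 3p arm ranged from 7 for miR-16-1-3p in animal 3 to 147 for miR-15b-3p in animal 2. The 5p count exceeded the 3p count in every animal for all 6 stems, against 52.5% of the 122 hairpins for which 5p and 3p names were listed and averaged 10 counts or more in sum. Since the family rule takes the 5p names, this direction says nothing particular of the family.

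The strongest arm ratio was that of miR-424, with 28744, 59520 and 57761 counts of the 5p arm beside 9, 8 and 11 counts of miR-424-3p in animals 1, 2 and 3. Its mean log2 ratio of 5p to 3p, with 0.5 count added to each arm, was 12.21 ± 0.61 (SD, n = 3), the third highest of the 122 hairpins. The 3p arm of miR-15a made up 0.138% ± 0.0361 of that hairpin's counts. For miR-16, both 3p arms together, miR-16-1-3p and miR-16-2-3p, made up 0.152% ± 0.0222.

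The 3p share was 0.357% ± 0.0983 for miR-195, 0.848% ± 0.140 for miR-497 and 1.55% ± 0.708 for miR-15b (SD, n = 3). Between the 3p arms of the miR-16 loci, miR-16-2-3p had 49, 56 and 31 counts and miR-16-1-3p had 12, 17 and 7 counts in animals 1, 2 and 3. The arm from the SMC4 locus was thus the higher of these in every animal. Arms of different hairpins may be retained to different degrees, so these counts do not give the loci's shares of miR-16-5p.

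**Figure D5:**
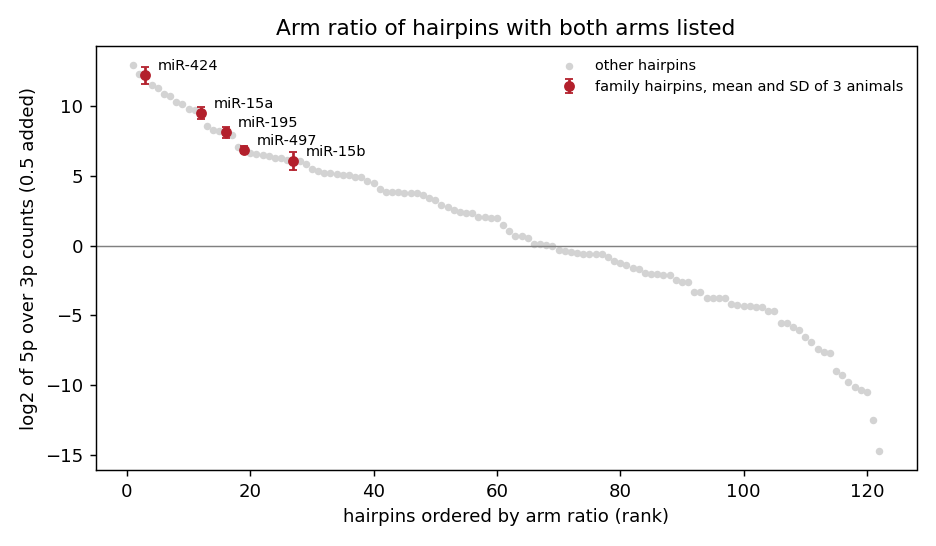
Mean log2 ratio of 5p to 3p counts (vertical axis, 0.5 count added to each arm) for the 122 hairpins with a 5p and a 3p name, ordered by that ratio (horizontal axis). The 5 family hairpins with a single 3p name are in red with the SD of the 3 animals, from 6.07 for miR-15b to 12.21 for miR-424, and the 2 miR-16 hairpins are left out because they share a 5p name.

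The 3p share of miR-15b was highest in animal 3, the animal with the lowest 5p arm. miR-15b-3p made up 1.17% of the hairpin's counts in animal 1, with a Wilson 95% interval of 0.967 to 1.41. It made up 1.12% (interval 0.955 to 1.32) in animal 2 and 2.37% (interval 1.98 to 2.84) in animal 3. The 5p counts were 8964, 12957 and 4694, whereas the 3p counts were 106, 147 and 114. The interval of animal 3 lay apart from those of the other two, which overlapped.

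The 3p arm of miR-497 behaved differently. miR-497-3p had 26, 36 and 45 counts and, like miR-497-5p, was highest in animal 3. It was the sole 3p arm of the 6 tested that was called different between libraries (chi-square test, Benjamini-Hochberg adjusted p 0.00912). Its adjusted p was 0.554 without animal 3 and between 0.00259 and 0.0338 under the other settings tried, and without animal 2 miR-15b-3p was called as well. miR-424-3p was not tested because its mean count was under 10. The other 3p arms tested were not called with all 3 animals, which does not show that their levels were equal.

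Among the 253 other miRNAs averaging 100 counts or more, those closest to the summed family in their deviations over the 3 animals were miR-660-5p, miR-15b-3p and miR-301a-3p. The likeness was measured as the root mean square difference of the TMM-scaled log2 deviations over 3 animals, which was 0.017, 0.020 and 0.022, beside a median of 0.302 over the 253. miR-660-5p had 9819, 13604 and 11091 counts and miR-301a-3p 1025, 1363 and 1115 counts in animals 1, 2 and 3. With 3 animals, this describes the libraries and is no measure of a shared pattern beyond them. The sum lay at -0.21, 0.06 and 0.15 from its mean in animals 1, 2 and 3. miR-15a-5p, miR-15b-5p and miR-16-5p lay on the opposite side of their means in animals 1 and 3. Likeness to the sum is thus not likeness to each member.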

How the data were processed

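Small RNA libraries of kidney cortex from 3 animals formed 1 group, with replicate numbers in label order. The authors' reads were matched to M. fascicularis miRNAs with 0 mismatches and miRNAs of at least 15 reads were kept, per the file headers, and the deposited raw table holds whole-number counts of 432 miRNAs. The smallest sum over the libraries was 15. The aligner, the miRNA reference and the treatment of reads matching several names are not given in the sources used here. Such reads can raise or lower single members. The second deposited table holds a normalized signal made with edgeR by the authors, per the file headers. Each of its columns equals the count times 1 factor (0.989, 0.951 and 1.06) in 100% of values within rounding. These factors are close to the reciprocals of the TMM factors given below, so the signal keeps the differences in library totals. It served as an alternative, though not one independent of TMM. 

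CPM were taken over each library's listed counts, and TMM factors (edgeR 4.0.16, R 4.3.3) were 1.01, 1.05 and 0.940 for animals 1, 2 and 3. The chi-square test was run in scipy 1.17.1 with Benjamini-Hochberg adjustment over 391 miRNAs. It was tested on simulated counts that varied, apart from changes set on purpose, by counting error alone. Other variation between animals was not simulated, so the simulation says nothing of the test under such variation. DESeq2 1.42.0 supplied alternative size factors. In CPM, 3 counts amounted to 0.697, 0.637 and 0.758, and intervals are Wilson 95% intervals for counting error. The p-values describe only these samples. Those of the chi-square test set differences between libraries against counting error, and those of the sign-flip test use within-animal differences. Alternatives were leaving out each animal, other scalings, other minimums and another pseudocount.

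The named miRNAs are all members, their 3p arms, the fixed list of relatives and partners, the marker lists and the 3 nearest patterns. Members and lists were chosen with earlier results of these data known, and the ratios between members were added after their levels were seen.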

Additional observations from a re-analysis of the deposited data

How the results depend on the processing

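The number of members spanning more than 2-fold, 2 with all animals, was between 0 and 1 in the fits that left out an animal, the 0 being without animal 3, and a range over fewer animals cannot be wider at fixed scaling. It was 1 under DESeq2 size factors, where miR-15b-5p fell to 1.98-fold. The number of members called was 5 without animal 3, where miR-15a-5p was not called, and 6 under the other settings. The family share and the summed level moved by less than 1 SD, and the counts of ordered pairs and of hairpins with more 5p by at most 1.5 times, in the recalculations run, which left out an animal, rescaled, changed the minimum or used the authors' signal. Many of these could not have moved further: a share does not depend on a factor per library, and means of 2 of 3 animals stay within 1 SD unless the scaling is refitted. Without animal 3 the level of miR-16-5p moved from 8519 to 9044 TMM-scaled CPM, more than the SD of 458. The number of 3p arms called, 1 with all animals, was 2 without animal 2 and 0 without animal 3, and the number of relatives and partners spanning more than 2-fold was 0 without animal 3 against 5 with it. The recalculations for the 3p arms, for the relatives and partners and for the ratios within libraries were chosen after seeing the data. Depth limits the 3p arms, most of which had fewer than 100 counts. No paired analysis was possible because all samples belong to 1 group and none are paired.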
